A study of Mus musculus with 20 samples.

Results

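The platelet-derived growth factor (PDGF) family is described here by 6 genes, the ligands Pdgfa, Pdgfb, Pdgfc and Pdgfd and the receptors Pdgfra and Pdgfrb, chosen by symbol from the 47069 genes of the count table. All 6 passed the filter on low counts that left 17622 genes for testing. Whole kidney RNA was sequenced from 20 male mice killed at 15 weeks of age, all of the 129SJ x C57Bl/6J F1 background, to compare wild-type with Alport kidneys and to follow the effect of 2 treatments. The 5 WT mice were untreated Col4a3+/+ littermates. The 6 Veh, 6 Anti-miR-21 and 3 ACEi mice were Col4a3-/- and carried the constitutive Col4a3tm1Dec allele, which disrupts the α3 chain of type IV collagen in every cell and models Alport syndrome. From 5 weeks of age, Veh mice received PBS subcutaneously once a week, and Anti-miR-21 mice received 50 mg/kg of lademirsen, an oligonucleotide that blocks miR-21, by the same route and schedule. ACEi mice received the angiotensin-converting enzyme inhibitor ramipril in the drinking water at 11 mg/L together with weekly PBS, a dose that the library table lists instead as 4 mg/kg. No wild-type mouse was treated, so a drug effect outside the Alport kidney was not measured. The tissue label of every sample is kidney, while the extraction label speaks of adipose tissue.

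PDGF ligands are secreted dimers that bind receptor tyrosine kinases at the cell surface. PDGF-A and PDGF-B are cut to their active form inside the cell by furin-type proteases, while PDGF-C and PDGF-D carry a CUB domain that extracellular serine proteases remove. PDGFRα binds the A, B and C chains, PDGFRβ binds the B and D chains, and in the kidney PDGF-B signalling through PDGFRβ is known for recruiting mesangial cells and pericytes and for driving the expansion of interstitial fibroblasts in disease.

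The deposited counts summed to between 28474301 and 29479629 per library, and the count behind a member value reached 7535 (Pdgfrb) at most and was lowest for Pdgfra in WT. Col4a3 itself was at 194 to 238 CPM (counts scaled to a common library size by the trimmed mean of M-values, TMM) in the WT mice, 27.9 to 46.3 CPM in Veh, 45.9 to 74.9 CPM in Anti-miR-21 and 42.8 to 56.2 CPM in ACEi. The knockout groups thus lay below every WT mouse, without reaching 0. Defining markers of proximal tubule, podocytes, endothelium and stroma had counts in every library. Markers of adipocytes summed to over 50 CPM in 3 Veh mice (A1, A4 and A9) and 1 Anti-miR-21 mouse (A12), against at most 6.91 CPM in WT and 3.04 CPM in ACEi. The library names begin with 1 of 2 run codes, here A and B: of the mice with code B, 2 are WT, 2 Veh, 1 Anti-miR-21 (A10) and 2 ACEi (A11 and A13), so a lone mouse stands for Anti-miR-21 within code B and for ACEi (A23) within code A. The labels do not say whether mice share a litter or cage, and the p-values below measure the spread between these mice.

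Since miR-21 is the target of lademirsen, its mature mouse sequence is shown first, with the seed (bases 2 to 8) in capitals. It lies at chr11:86584120-86584141 on the minus strand of GRCm38.p6 (RefSeq).
mmu-miR-21a-5p: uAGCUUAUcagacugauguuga

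A seed match (ATAAGCT in the transcript sense) was found in 0 of the 6 members' 3′ untranslated regions, which are 1203 (Pdgfa), 1408 (Pdgfb), 1462 (Pdgfc), 1942 (Pdgfd), 3115 (Pdgfra) and 1678 (Pdgfrb) bases long in the transcript used for each gene. Over 20998 genes, 7.196% of such regions hold this match. The letters are therefore absent from these 6 regions, which says nothing about other kinds of site.

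On GRCm38, Pdgfa spans chr5:138976014-138997370 on the minus strand, Pdgfb chr15:79995874-80014977 on the minus strand, Pdgfc chr3:81036416-81214040, Pdgfd chr9:6168584-6378850 and Pdgfra chr5:75152292-75198215, all 3 on the plus strand. The antisense gene 6330403L08Rik overlaps Pdgfa and reached at most 359 counts in a library. Because the sources do not say whether the counting used strand, its reads and those of Pdgfa cannot be told apart where they overlap. The 250 bases before a RefSeq transcript start are printed for Pdgfa and Pdgfc, because the former ligand rose in the Veh kidneys and the latter did not rise on the same scale. Capitals mark GC boxes (GGGCGG, read on both strands) in Pdgfa, at chr5:138994945-138995194 on the minus strand, and a CArG box in Pdgfc, at chr3:81036166-81036415 on the plus strand, both of GRCm38.p6.
Pdgfa: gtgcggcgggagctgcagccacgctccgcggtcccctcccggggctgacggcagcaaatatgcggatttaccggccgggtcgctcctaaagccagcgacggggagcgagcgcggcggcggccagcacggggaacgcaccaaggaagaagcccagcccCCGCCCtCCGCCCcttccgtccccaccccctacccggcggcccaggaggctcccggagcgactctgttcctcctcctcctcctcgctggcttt
Pdgfc: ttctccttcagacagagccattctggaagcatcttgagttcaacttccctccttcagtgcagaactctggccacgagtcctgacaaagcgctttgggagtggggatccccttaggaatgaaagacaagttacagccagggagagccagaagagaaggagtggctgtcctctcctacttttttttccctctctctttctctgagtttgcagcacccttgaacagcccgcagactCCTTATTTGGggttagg

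The Pdgfa window is 72.4% G and C, against a median of 52.4% over 32851 such windows, and holds 2 GC boxes, which start 93 and 86 bases before the transcript start. The Pdgfc window is 50.8% G and C and holds no GC box, and its CArG box starts 17 bases before the transcript start. A GC box is present in 32.742% of all windows, a CArG box in 1.467% and an EGR site (GCGGGGGCG) in 2.572%. Neither the Pdgfd nor the Pdgfra window holds any of the 3 motifs, and a second Pdgfa window (chr5:138994282-138994531) holds 1 GC box.

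In the Veh kidneys 5 of the 6 members were higher than in WT and 1, Pdgfc, was lower, with a call that was lost under many of the other settings. Pdgfb rose most among the ligands (4.73-fold), followed by Pdgfa (2.79-fold) and Pdgfd (1.69-fold), and the 2 receptors rose by similar factors (Pdgfrb 4.09-fold, Pdgfra 3.83-fold). Among all genes tested, 39.0% were called higher and 34.0% lower in this comparison with edgeR's quasi-likelihood test (Benjamini-Hochberg adjusted p under 0.05), so a change alone sets no gene apart. The median log2 fold change of the 6 members was 1.71, beside 0.07 over all genes tested. The balance of calls over all genes depends on the scaling, at 6869 higher and 5998 lower with TMM and 11623 higher and 2684 lower with library totals alone, where all 6 members were called higher. The ranges of the 2 groups did not overlap, with Veh higher, for 5 members, as for 28.8% of all genes. In bulk RNA, a change in the number of cells that express a gene and a change in RNA per cell cannot be told apart.

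**Figure D1:**
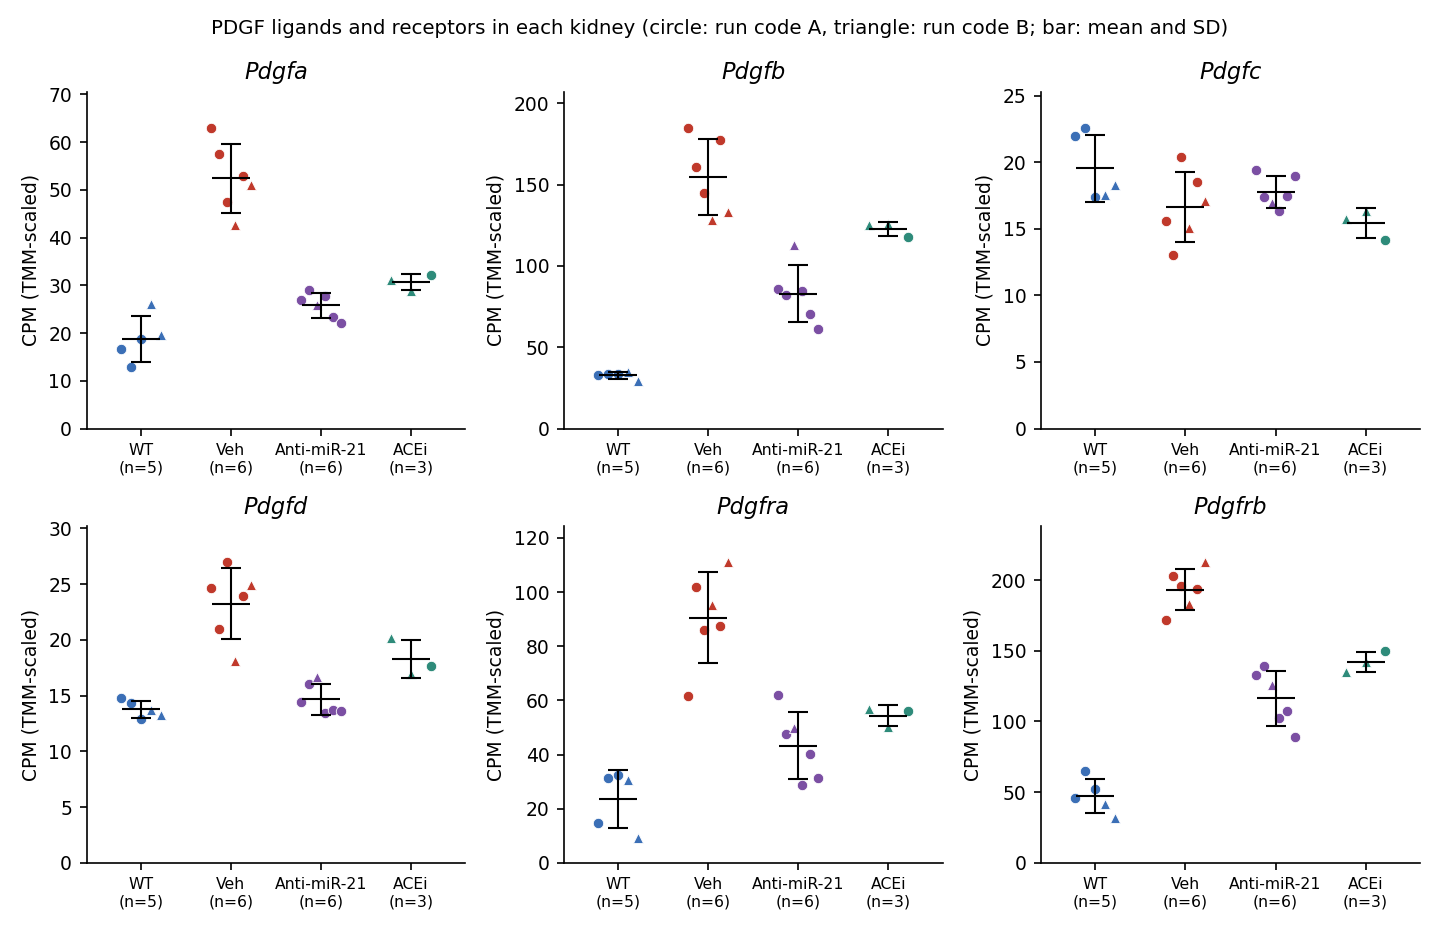
TMM-scaled CPM of each PDGF ligand and receptor on the vertical axis, by group, with 1 point per mouse and bars for the mean and SD. The Veh mice lie above all WT mice for every member except Pdgfc, and the treated mice lie mostly between the 2 groups.

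Pdgfb encodes the B chain, the ligand that binds both receptors. Its level was 32.7, 33.8, 33.5, 34.5 and 29.3 CPM in the 5 WT mice and ran from 128 CPM (A16) through a median of 153 CPM to 185 CPM (A1) in the 6 Veh mice. The WT values were the tightest of any member relative to their level except Pdgfd (32.8 ± 2.03 CPM, SD, n = 5), and the lowest Veh mouse lay far above the highest WT mouse. The fitted difference between Veh and WT was 2.24 on the log2 scale (SE 0.13, edgeR adjusted p = 1.16e-11). Within run codes A and B it was 2.34 and 2.03.

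Pdgfa encodes the A chain, which binds PDGFRα. Its level was 16.7, 12.8, 18.8, 26 and 19.6 CPM in WT, and 42.6 CPM (A16), 51.9 CPM and 62.9 CPM (A1) as lowest, median and highest in Veh. The same pair of Veh mice, A16 and A1, stood at the low and the high end of both Pdgfa and Pdgfb. The difference was 1.48 on the log2 scale (SE 0.13, edgeR adjusted p = 3.91e-09), with 1.80 within run code A and 1.04 within run code B. Pdgfd encodes the D chain, which binds PDGFRβ. It was at 14.7, 14.3, 12.9, 13.7 and 13.3 CPM in WT and at 18.1 CPM (A16), 24.3 CPM and 27.0 CPM (A9) as lowest, median and highest in Veh, again without overlap. Its difference was smaller, 0.75 on the log2 scale (SE 0.09, edgeR adjusted p = 2.93e-07), and similar within run codes A (0.80) and B (0.67).

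Pdgfc encodes the C chain, which binds PDGFRα, and was the exception. WT mice had 21.96, 22.6, 17.4, 17.5 and 18.2 CPM and Veh mice 13.04 CPM (A4), 16.3 CPM and 20.4 CPM (A9) as lowest, median and highest. The ranges overlapped. The fitted difference of -0.23 on the log2 scale (SE 0.10, edgeR adjusted p = 0.0442) turned to 0.36 when library totals alone set the scale and to 0.30 on the deposited FPKM with limma, so its direction depends on the scaling between libraries. Library totals moved the median of all genes by 0.65 on the log2 scale in the same comparison, against 0.07 with TMM, and relative to that median Pdgfc was lower under either scale. The call was also lost with upper-quartile scaling (adjusted p = 0.288), with only the groups compared in the fit (0.128), with adipocyte markers as a term (0.126), with either other filter, within either run code, and when any of A3, A6, A1, A4, A16 and A20 was left out (adjusted p up to 0.138).

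Pdgfrb encodes PDGFRβ, the receptor of mesangial cells, pericytes and fibroblasts. It was at 45.8, 64.9, 52.2, 41.4 and 31.9 CPM in WT and at 172 CPM (A1), 195 CPM and 213 CPM (A20) as lowest, median and highest in Veh. Every Veh mouse exceeded every WT mouse, and the difference was 2.03 on the log2 scale (SE 0.14, edgeR adjusted p = 1.5e-10), with 1.83 within run code A and 2.43 within run code B. Pdgfra encodes PDGFRα, a receptor of interstitial fibroblasts, and was the most uneven member in WT, with 3 mice between 30.5 and 32.3 CPM (31.4 in A6, 32.3 in A14 and 30.5 in A17) and 2 lower ones, 14.7 in A3 and 9.14 in A18. Veh mice ranged from 61.8 CPM (A1) over a median of 91.3 CPM to 111 CPM (A20), all above the highest WT mouse. The difference was 1.94 on the log2 scale (SE 0.27, edgeR adjusted p = 1.75e-06), with 1.70 within run code A and 2.38 within run code B. Mouse A18, the lowest WT mouse for both receptors, was also the lowest in WT for the summed endothelial (86.4 CPM), stromal (139 CPM), podocyte (195 CPM) and proximal tubule (11688 CPM) markers, and mouse A20 was the highest Veh mouse for both receptors and for the stromal markers (4241 CPM).

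**Figure D2:**
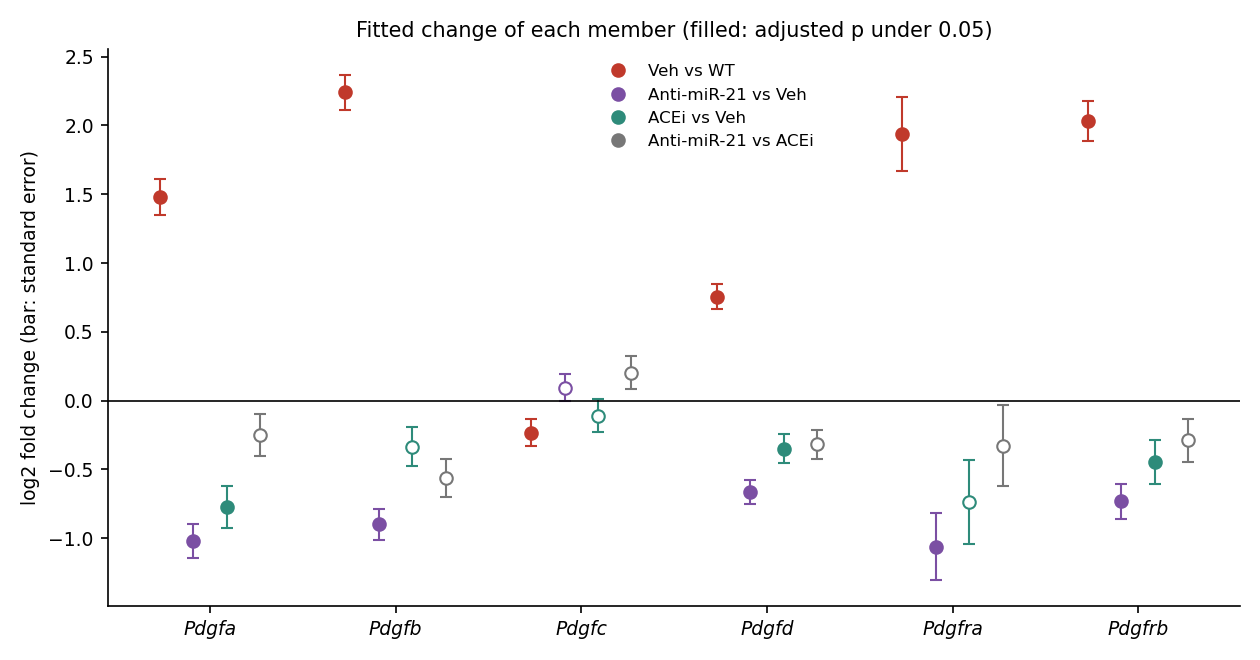
Log2 fold change of each member in 4 comparisons (vertical axis), with bars for the standard error of the edgeR fit and filled points for an adjusted p under 0.05. The rise in Veh against WT was largest for Pdgfb (2.24), and the changes under either treatment were smaller and mostly downward, with 5 filled points for Anti-miR-21 and 3 for ACEi.

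In Anti-miR-21 mice 5 of the 6 members were lower than in Veh and 0 higher, and Pdgfc did not pass the test. Among all genes, 30.5% were called lower and 28.8% higher in this comparison. The median log2 fold change of the members was -0.82, beside -0.04 over all genes. With library totals alone 2459 genes were higher and 9861 lower, against 5073 and 5367 with TMM, and all 6 members were called lower. The ranges of the 2 groups did not overlap for 4 members (Pdgfa, Pdgfb, Pdgfd and Pdgfrb), with Anti-miR-21 lower, as for 17.9% of all genes.

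Among the ligands, Pdgfa fell to 22.02 CPM (A22), 26.4 CPM and 28.9 CPM (A8) as lowest, median and highest of the 6 Anti-miR-21 mice. These values are tightly grouped, and 3 of the 6 mice lay within the WT range. The difference from Veh was -1.02 on the log2 scale (SE 0.12, edgeR adjusted p = 8.23e-07), and -1.09 and -0.85 within run codes A and B. Pdgfb fell to 61.5 CPM (A22), 83.6 CPM and 113 CPM (A10), a wide spread in which every mouse lay between the Veh and the WT range. It differed from Veh by -0.90 (log2, SE 0.12, edgeR adjusted p = 1.7e-06). Within run code A it was -1.11, while within run code B, where A10 is the only Anti-miR-21 mouse, it was -0.21. Pdgfd fell to 13.5 CPM (A12), 14.1 CPM and 16.6 CPM (A10), and 4 of the 6 mice lay within the WT range. Its difference from Veh was -0.67 (log2, SE 0.09, edgeR adjusted p = 1.96e-06), with -0.75 and -0.37 within run codes A and B.

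Pdgfc in Anti-miR-21 mice was at 16.3 CPM (A12), 17.4 CPM and 19.4 CPM as lowest, median and highest. All 6 mice lay within the Veh range. The difference from Veh was 0.09 with TMM scaling (log2, SE 0.10, edgeR adjusted p = 0.412) and -0.25 with library totals alone, a scale on which the median of all genes moved by -0.38.

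Both receptors fell with anti-miR-21 treatment. Pdgfrb was at 89.1 CPM (A22), 117 CPM and 139 CPM (A8) as lowest, median and highest, with no mouse in the WT or the Veh range. Its difference from Veh was -0.73 on the log2 scale (SE 0.13, edgeR adjusted p = 6.93e-05), and -0.73 and -0.65 within run codes A and B. Pdgfra was at 28.8 CPM (A12), 43.9 CPM and 62.1 CPM (A2). The spread reached both sides, with 2 mice in the WT range and A2 just inside the Veh range. It differed from Veh by -1.06 (log2, SE 0.24, edgeR adjusted p = 0.000884), and -0.99 and -1.05 within run codes A and B. Code B holds a single Anti-miR-21 mouse, so for that code only the differences are given and no test result is reported.

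In ACEi mice 3 of the 6 members were lower than in Veh (Pdgfa, Pdgfd and Pdgfrb) and 0 higher. Among all genes, 19.1% were called lower and 21.0% higher. The median log2 fold change of the members was -0.40, beside -0.05 over all genes. With library totals alone 1907 genes were higher and 7389 lower, against 3704 and 3370 with TMM, and all 6 members were called lower. The ranges of 4 members did not overlap those of Veh, with ACEi lower (Pdgfa, Pdgfb, Pdgfra and Pdgfrb), as for 18.8% of all genes. This comparison shares its Veh mice with the preceding one and has 3 treated mice.

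Pdgfa was at 31.1 (A11), 28.8 (A13) and 32.1 CPM (A23) in the ACEi mice, all between the WT and the Veh range. The difference from Veh was -0.77 on the log2 scale (SE 0.15, edgeR adjusted p = 0.000594), and -0.77 and -0.64 within run codes A and B. Pdgfd was at 20.2, 16.96 and 17.7 CPM in the same order, with A11 inside the Veh range. The distance to Veh was -0.35 (log2, SE 0.11, edgeR adjusted p = 0.0134), and was not called when A13 (adjusted p = 0.0896) or A23 (adjusted p = 0.0600) was left out. Within run codes A and B the Pdgfd difference was -0.44 and -0.21. Pdgfb was at 125, 126 and 118 CPM, close below the lowest Veh mouse at 128 CPM. Its difference from Veh of -0.33 (log2, SE 0.14) did not pass the edgeR test (adjusted p = 0.0659) and passed with DESeq2 (adjusted p = 0.0436). Within run codes A and B the Pdgfb difference was -0.49 and -0.06.

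Pdgfc was at 15.7, 16.3 and 14.2 CPM in ACEi mice, all inside the Veh range, with a difference of -0.11 (log2, SE 0.12, edgeR adjusted p = 0.489). Pdgfrb was at 135, 142 and 150 CPM, below every Veh mouse and above every WT mouse. Its difference from Veh was -0.44 (log2, SE 0.16, edgeR adjusted p = 0.0333), with -0.34 and -0.51 within run codes A and B. The call for Pdgfrb was lost when run code was a term (adjusted p = 0.0571) and when any of A4, A9, A19, A20, A11, A13 and A23 was left out (adjusted p up to 0.119). Pdgfra was at 56.9, 50.1 and 56.1 CPM, below every Veh mouse. Its difference of -0.74 (log2, SE 0.30) was close to that of Pdgfa but did not pass the edgeR test (adjusted p = 0.0602), and passed with DESeq2 (adjusted p = 0.0313) and when Veh mouse A1 was left out (adjusted p = 0.0492). The Pdgfra difference was -0.57 and -0.94 within run codes A and B. Leaving out ACEi mouse A13 or A23 reduced the number of members called from 3 to 1. Over all genes the calls also fell, from 7074 of 17622 to 4978 of 18006 without A13 and 5947 of 17991 without A23.

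Compared directly, Anti-miR-21 and ACEi mice differed in 0 of the 6 members by edgeR's quasi-likelihood test, with 2 members at an unadjusted p under 0.05 (Pdgfb and Pdgfd), 1 called by DESeq2 (Pdgfb) and 0 by limma on FPKM. Among all genes, edgeR called 0.584%, DESeq2 440 of 17622 and limma on log2(FPKM + 1) 93 of 21460. The largest difference was that of Pdgfb, -0.56 on the log2 scale (SE 0.14, edgeR adjusted p = 0.0605), followed by Pdgfra (-0.33, SE 0.29), Pdgfd (-0.32, SE 0.10), Pdgfrb (-0.29, SE 0.16) and Pdgfa (-0.25, SE 0.15), all lower in Anti-miR-21, and Pdgfc was 0.20 higher (SE 0.12). All 6 Anti-miR-21 mice lay below all 3 ACEi mice for Pdgfb and Pdgfd, a pattern shown by 4.80% of all genes. For Pdgfc the 6 mice lay above all 3 ACEi mice, by a narrow margin (lowest 16.34 against highest 16.32 CPM), as for 4.19% of all genes. Without mouse A10, the highest Anti-miR-21 mouse for Pdgfb, Pdgfb was called with an adjusted p of 0.0156, and within run codes A and B its difference was -0.61 and -0.15.

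Against WT, 4 members were still higher in Anti-miR-21 mice and 5 in ACEi mice, beside 23.9% and 25.2% of all genes called higher. Over all genes these were 4203 higher and 3496 lower in Anti-miR-21 and 4432 higher and 3973 lower in ACEi, against 7719 and 998, and 8006 and 1345, with library totals alone. In Anti-miR-21 mice these were Pdgfb (1.34 on the log2 scale, SE 0.13), Pdgfrb (1.30, SE 0.14), Pdgfra (0.88, SE 0.26) and Pdgfa (0.46, SE 0.13), while Pdgfd differed from WT by 0.09 (SE 0.09, edgeR adjusted p = 0.461). In ACEi mice they were Pdgfb (1.91, SE 0.14), Pdgfrb (1.59, SE 0.16), Pdgfra (1.203, SE 0.30), Pdgfa (0.71, SE 0.16) and Pdgfd (0.41, SE 0.11). Pdgfc was called lower in ACEi mice (-0.34, SE 0.12, edgeR adjusted p = 0.0281), as were 22.5% of all genes. That call was lost with library totals (-0.028, adjusted p = 0.875), with limma on the deposited FPKM, with either other filter, within either run code, and when any of A3, A6, A11 and A23 was left out (adjusted p up to 0.135). The ranges of 2 members, Pdgfb and Pdgfrb, stayed clear above WT in Anti-miR-21 mice (14.7% of all genes), and those of 5 members in ACEi mice (23.9% of all genes). Pdgfc lay below WT without overlap in ACEi mice, as did 22.3% of all genes, and overlapped WT in Anti-miR-21 mice.

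The distance between the WT and the Veh mean (log2 CPM) that each treated mouse had covered differed by member. In Anti-miR-21 mice the mean return was 88.6 ± 17.7% for Pdgfd (SD, n = 6), 67.5 ± 10.1% for Pdgfa, 52.5 ± 20.2% for Pdgfra, 40.9 ± 13.3% for Pdgfb and 36.1 ± 12.01% for Pdgfrb. In ACEi mice it was 50.6 ± 5.36% for Pdgfa (SD, n = 3), 45.7 ± 17.5% for Pdgfd, 34.3 ± 4.89% for Pdgfra, 21.4 ± 3.604% for Pdgfrb and 14.4 ± 2.40% for Pdgfb. Of the 5 members that rose in Veh, Pdgfb and Pdgfrb rose most and had the smallest returns in both treated groups. For Pdgfc, whose gap between WT and Veh was small, the share was 45.1 ± 40.3% in Anti-miR-21 mice and -40.3 ± 44.3% in ACEi mice, where a negative value lies farther from WT than Veh. No test was run on these shares, which use the same Veh and WT mice in both groups.

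Levels of different genes were compared per length, with the deposited FPKM, which are not scaled between libraries beyond their totals. In WT kidneys Pdgfa had the highest mean (10.8 ± 2.57 FPKM, SD, n = 5), ahead of Pdgfrb (9.47 ± 2.46) and Pdgfb (9.31 ± 0.828), and these 3 did not separate, since the order held in 4 of 5 mice for the first pair and in 3 of 5 for the second. Pdgfc (4.56 ± 0.566) lay clearly below them, and Pdgfra (3.01 ± 1.43) and Pdgfd (2.45 ± 0.729) overlapped at the bottom. In Veh kidneys Pdgfb (66.4 ± 11.6 FPKM, SD, n = 6) and Pdgfrb (58.9 ± 5.57) stood first, in that order in 4 of 6 mice, followed by Pdgfa (45.5 ± 7.43). Pdgfra (17.3 ± 3.25) was clearly apart from the genes on either side of it, and Pdgfc (5.88 ± 1.09) and Pdgfd (5.73 ± 1.41) overlapped.

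In Anti-miR-21 mice Pdgfb (28.1 ± 7.26 FPKM, SD, n = 6) and Pdgfrb (28.0 ± 6.45) could not be ordered, with Pdgfa at 17.7 ± 2.70, Pdgfra at 6.59 ± 2.30, Pdgfc at 4.94 ± 0.529 and Pdgfd at 3.33 ± 0.998. In ACEi mice Pdgfb (43.2 ± 2.14 FPKM, SD, n = 3) exceeded Pdgfrb (35.5 ± 1.76) in all 3 mice, and Pdgfa (22.02 ± 1.64), Pdgfra (8.56 ± 0.891) and then Pdgfc (4.49 ± 0.316) followed without overlap, with Pdgfd (4.27 ± 0.766) last in 2 of 3 mice. Pdgfa, Pdgfb and Pdgfrb were the 3 leading members in every group, also when TMM-scaled CPM were divided by the kilobases of merged exons. The order within the leading and within the lower 3 changed on that second scale. There Pdgfrb came first in WT, ahead of Pdgfb and Pdgfa, and also in Anti-miR-21, while Pdgfra came last in WT and Pdgfc in Veh, Anti-miR-21 and ACEi. The FPKM entries of Pdgfb, Pdgfd and Pdgfra carry the authors' mark for overlap with other genes.

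**Figure D3:**
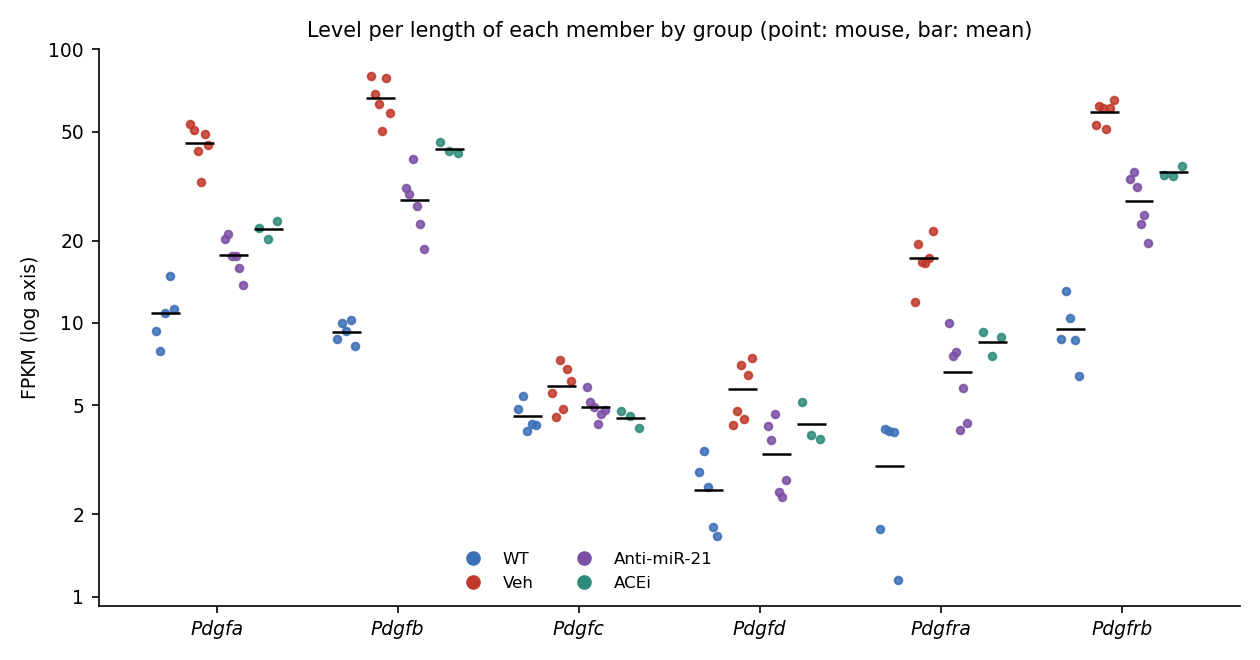
Deposited FPKM of the 6 members in each group on a log axis, with 1 point per mouse and bars for the mean. Pdgfa, Pdgfb and Pdgfrb lead in every group, and all 3 are highest in Veh.

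A ratio of 2 members within a kidney does not depend on the scaling between libraries. The ratio of Pdgfb to Pdgfa was 0.895 ± 0.224 in WT (SD, n = 5, range 0.693 to 1.26) and 1.46 ± 0.112 in Veh (SD, n = 6, range 1.30 to 1.60). The groups did not overlap, and the log2 difference was 0.74 (1.67-fold, exact two-sided permutation test, p = 0.00433, the smallest this design allows, adjusted over 8 ratio tests 0.0346). From the counts, without scaling, the difference was 0.72 (exact permutation test, adjusted p = 0.0693). Within run codes A and B the difference of the FPKM ratios was 0.56 and 0.99. Leaving out any 1 mouse kept it between 0.65 and 0.87 but left too few divisions of the mice for a call after adjustment (adjusted p of 0.0519 to 0.0762). In Anti-miR-21 mice the ratio was 1.59 ± 0.340 (SD, n = 6, range 1.35 to 2.27), a log2 difference of 0.10 from Veh (exact permutation p = 0.543, adjusted 0.724). One mouse, A10, lay apart at 2.27, and without it the difference from Veh was -0.01. In ACEi mice the ratio was 1.97 ± 0.175 (SD, n = 3), with all 3 mice above all Veh mice. The log2 difference from Veh was 0.43 (exact permutation p = 0.0238, the smallest possible with 3 against 6 mice, adjusted 0.0866), and 0.26 and 0.55 within run codes A and B. The log2 difference between Anti-miR-21 and ACEi was -0.33 (exact permutation p = 0.0952, adjusted 0.152).

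The ratio of the 2 receptors gave no call in any of its comparisons. Pdgfrb to Pdgfra was 3.70 ± 1.51 in WT (SD, n = 5, range 2.18 to 5.60) and 3.48 ± 0.530 in Veh (SD, n = 6, range 3.02 to 4.44), and the WT mice spread over the whole Veh range. The log2 difference was -0.01 (exact permutation p = 0.978, adjusted 0.978), between -0.17 and 0.17 when single mice were left out. The ratio was 4.42 ± 0.761 in Anti-miR-21 (SD, n = 6, range 3.35 to 5.65) and 4.18 ± 0.400 in ACEi (SD, n = 3), both overlapping Veh. The log2 difference from Veh was 0.34 for Anti-miR-21 (exact permutation p = 0.0325, adjusted 0.0866) and 0.27 for ACEi (exact permutation p = 0.0952, adjusted 0.152). Neither passed the adjusted threshold. Within run codes A and B these differences were 0.27 and 0.41 for Anti-miR-21 and 0.21 and 0.44 for ACEi. Between Anti-miR-21 and ACEi the receptor ratio differed by 0.07 (log2, exact permutation p = 0.714, adjusted 0.816).

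**Figure D4:**
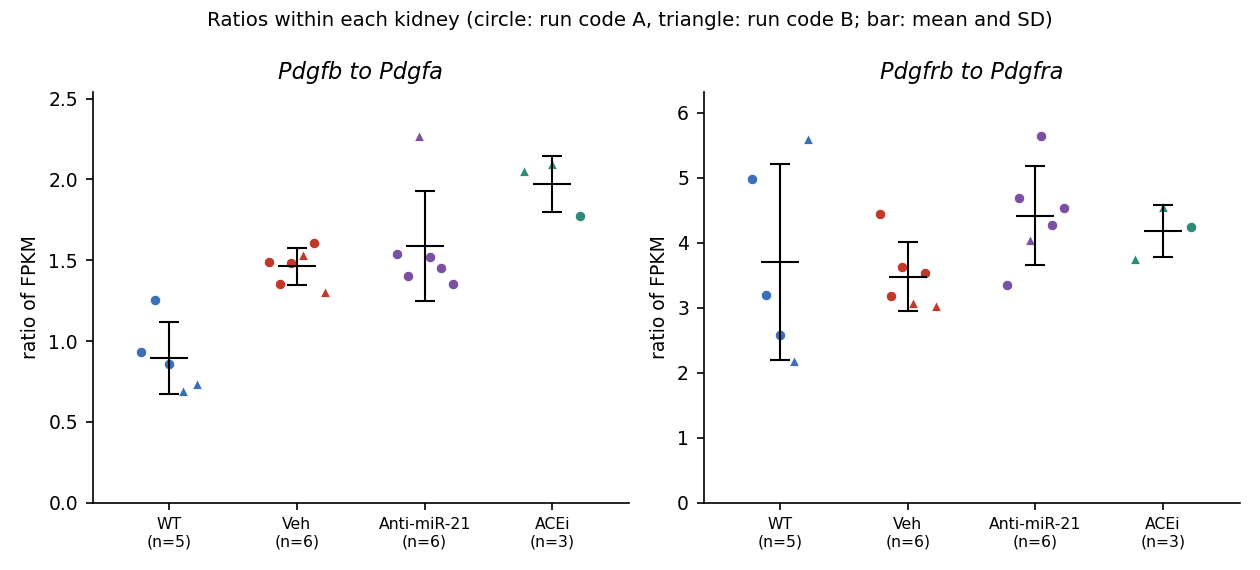
Ratios of FPKM within each kidney (vertical axes) by group, Pdgfb to Pdgfa on the left and Pdgfrb to Pdgfra on the right, with circles for run code A, triangles for run code B and bars for mean and SD. The 5 WT mice lie below all Veh mice for the ligand ratio, while the receptor ratio overlaps between all groups.

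The genes that release, cleave or bind PDGF were followed with a list of 10, of which 9 could be tested and Klk6 was too low (at most 0.0562 CPM). In Veh against WT, 6 of the 9 rose, 2 fell and 1 did not pass the test, with a median log2 fold change of 1.04 beside 0.07 over all genes, of which 39.0% were called higher and 34.0% lower. The pair of intracellular proprotein convertases on the list fell, Furin by 0.84 on the log2 scale (SE 0.08) and Pcsk5 by 0.54. Pcsk5 was 0.040 higher rather than lower when library totals alone set the scale. The extracellular proteases that act on the CUB domain ligands rose or did not pass: Plat, tissue plasminogen activator, which cleaves PDGF-C, rose by 1.53, and St14, matriptase, rose by 1.04. Plau, urokinase, which cleaves PDGF-D, had a value of -0.22 that did not pass (edgeR adjusted p = 0.0525). Sparc, a matrix protein that binds PDGF-B, rose by 3.13, from a mean of 155 to 1359 CPM. Lrp1, an endocytic receptor that associates with PDGFRβ, rose by 2.35, and Nrp1, a co-receptor, by 0.61. Pdgfrl, the PDGF receptor-like gene, had the largest rise on the list (4.25), from a mean of 0.549 to 10.6 CPM.

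With Anti-miR-21, 2 of the 9 rose relative to Veh (Furin 0.35 and Pcsk5 0.34), 5 fell and 2 did not pass, with a median of -0.76 beside -0.04 over all genes (28.8% called higher, 30.5% lower). Those that fell were Pdgfrl by 2.51, Sparc by 1.25, St14 by 0.97, Lrp1 by 0.91 and Plat by 0.76. With library totals alone Furin differed by 0.0046 and Pcsk5 by -0.0043 from Veh. With ACEi, 2 of the 9 rose (Furin 0.36 and Pcsk5 0.36), 6 fell and 1 did not pass, with a median of -0.46 beside -0.05 over all genes (21.0% called higher, 19.1% lower). With library totals alone Furin differed from Veh by 0.091 and Pcsk5 by 0.086, neither called, and the Pcsk5 call was also lost without A11 or A13 (adjusted p up to 0.0837). The 6 included Pdgfrl (fell by 2.19), St14 (fell by 0.88), Lrp1 (fell by 0.76), Sparc (fell by 0.69), Plat (fell by 0.46) and Plau (fell by 0.44). The Plat call was lost whichever of the Veh or ACEi mice was left out (adjusted p of 0.0509 to 0.189). Between the treatments 1 of the 9 was called, beside 0.584% of all genes. Plau was 0.58 higher in Anti-miR-21 than in ACEi (log2, SE 0.12, edgeR adjusted p = 0.0311), with means of 642 and 429 CPM. The groups did not overlap, with Anti-miR-21 higher, as for 4.19% of all genes. The Plau call was lost when any of A10, A15, A22, A11, A13 and A23 was left out.

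The signalling list holds 26 adaptors, kinases, phosphatases and transcription factors that act below PDGF receptors and many other receptors, and all 26 were tested. In Veh against WT 16 rose, 8 fell and 2 did not pass, with a median log2 fold change of 0.41 beside 0.07 over all genes (39.0% called higher, 34.0% lower). Among those that rose were Stat3 (1.51), a transcription factor, and Fyn (1.36), a kinase of the Src family. The 3 that fell most were Pik3cb (fell by 0.73) and Pik3ca (fell by 0.51), catalytic subunits of phosphatidylinositol 3-kinase, and Sos1 (fell by 0.58), a Ras exchange factor. With Anti-miR-21, 7 rose and 14 fell relative to Veh and 5 did not pass (median -0.20 beside -0.04, with 28.8% of all genes called higher and 30.5% lower). The strongest falls were those of Ptprj (fell by 0.57), a receptor phosphatase, Stat3 (fell by 0.48) and Src (fell by 0.47), and the strongest rises those of Pik3cb (0.49), Pik3ca (0.44) and Crkl (0.30), an adaptor. With ACEi, 5 rose and 6 fell and 15 did not pass (median -0.05, equal to that of all genes at 2 decimals, with 21.0% of all genes called higher and 19.1% lower). The strongest rises were those of Crkl (0.50), Sos1 (0.34) and Pik3ca (0.33), and the strongest falls those of Ptprj (fell by 0.50), Shc1 (fell by 0.28), an adaptor, and Src (fell by 0.26). The shares called on this list in ACEi against Veh are near those over all genes. Between the treatments 0 of the 26 were called by edgeR's quasi-likelihood test, with 7 at an unadjusted p under 0.05, and 0 by DESeq2. Over all genes edgeR called 0.584% and DESeq2 440 of 17622.

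**Figure D5:**
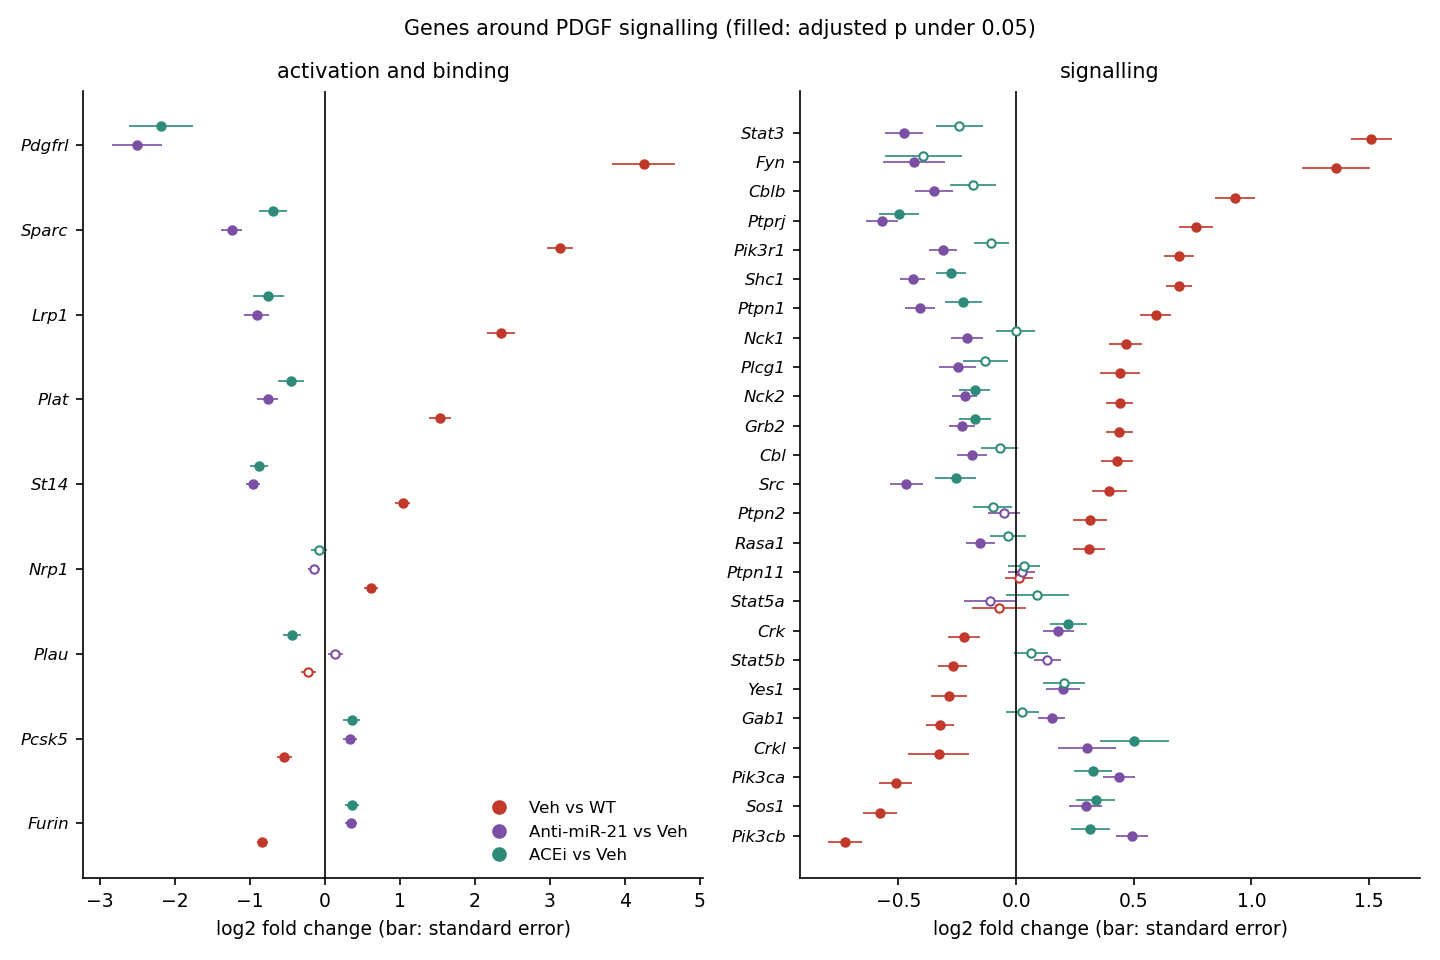
Log2 fold changes (horizontal axis, bars for the standard error) of the 9 tested activation and binding genes and of the signalling genes in 3 comparisons, with 1 signalling gene not drawn, with filled points for an adjusted p under 0.05. Changes of the signalling genes drawn stayed within 1.51 of 0, while Pdgfrl and Sparc reached 4.25 and 3.13 on the other.

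The other class III receptor kinases, relatives of the PDGF receptors, are given for comparison. In Veh against WT, Flt3 rose by 2.68, Csf1r by 1.02 and Kit by 0.27, against 2.03 for Pdgfrb and 1.94 for Pdgfra. With Anti-miR-21 all 3 fell relative to Veh, Csf1r by 0.85, Flt3 by 0.55 and Kit by 0.25. With ACEi only Csf1r, the macrophage receptor, fell (by 0.62), while Flt3 and Kit had values of -0.15 and -0.03 that did not pass. No difference between these genes and the PDGF receptors was tested.

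Cell markers moved alongside the PDGF genes. The sum over 5 stromal markers (Dcn, Lum, Col1a1, Col1a2 and Col3a1) was 139 to 363 CPM in WT, 3314 to 4241 CPM in Veh, 667 to 1503 CPM in Anti-miR-21 and 1695 to 1868 CPM in ACEi. All 5 rose in Veh, 4 fell with Anti-miR-21 and 3 with ACEi. Dcn overlapped Veh in Anti-miR-21 mice (139 to 235 CPM, against 150 to 229 CPM in Veh). Each collagen gene was at 888 CPM or more in every Veh mouse, so the sum mostly reflects the collagen genes. The sum over 5 mural and mesangial markers (Rgs5, Cspg4, Notch3, Myh11 and Itga8) was 111 to 132 CPM in WT, 196 to 255 CPM in Veh, 150 to 168 CPM in Anti-miR-21 and 167 to 183 CPM in ACEi, with 3 of 5 higher in Veh, 3 lower with Anti-miR-21 and 4 lower with ACEi. Macrophage markers summed to 125 to 138 CPM in WT, 575 to 695 CPM in Veh, 248 to 356 CPM in Anti-miR-21 and 319 to 380 CPM in ACEi, with all 5 higher in Veh and lower under either treatment. Csf1r is counted both here and among the receptor kinases. The stromal, the mural and mesangial, and the macrophage sums thus changed in the same directions as Pdgfra, Pdgfrb, Pdgfa, Pdgfb and Pdgfd. Their part in those results was not tested.

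Proximal tubule markers went the other way, with sums of 11688 to 14986 CPM in WT, 1291 to 3629 CPM in Veh, 6394 to 10660 CPM in Anti-miR-21 and 6650 to 8710 CPM in ACEi, and all 5 were called in each comparison with Veh. Podocyte sums, with 4 of 5 markers higher in Veh, were 195 to 324 CPM in WT, 347 to 413 CPM in Veh, 429 to 486 CPM in Anti-miR-21 and 410 to 427 CPM in ACEi. Endothelial sums overlapped in all groups, with 2 of 5 higher and 1 lower in Veh, at 86.4 to 244 CPM in WT, 199 to 253 CPM in Veh, 210.7 to 266 CPM in Anti-miR-21 and 224 to 252 CPM in ACEi. Platelets are a classical store of PDGF, and their markers were low, at 9.44 to 14.9 CPM in WT, 8.69 to 12.1 CPM in Veh, 7.11 to 9.36 CPM in Anti-miR-21 and 8.34 to 9.61 CPM in ACEi, of which 2 of 4 tested were higher and 1 lower in Veh, and 3 of 4 lower with Anti-miR-21. Adrenal markers summed to 5.56 to 7.05 CPM in WT, 6.05 to 9.495 CPM in Veh, 5.86 to 8.73 CPM in Anti-miR-21 and 13.2 to 18.1 CPM in ACEi, with 1 of 3 tested higher in ACEi than in Veh and 1 lower. The higher sum in ACEi came from Akr1b7 (10.8 to 15.7 CPM, against at most 6.18 CPM in Veh), while Cyp21a1 was lower and Star did not pass. The adrenal gene Cyp11b2 was at 0 in all 20 mice.

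Adipocyte markers summed to 0.656 to 6.91 CPM in WT, 0.677 to 120 CPM in Veh, 1.76 to 99.7 CPM in Anti-miR-21 and 0.394 to 3.04 CPM in ACEi, with 4 of 5 higher in Veh against WT and 4 of 5 lower in ACEi against Veh. Lep was at 0 in 8 mice. With the 4 mice above 50 CPM left out, 5 members were called in Veh against WT, 5 in Anti-miR-21 against Veh and 1 in ACEi against Veh. Between the treatments 0 were called, with 4 in Anti-miR-21 against WT and 6 in ACEi against WT. Of the 17263 genes tested, 11694, 8007, 4614, 63, 7699 and 8408 were called in the same order. With all mice, 10440 and 7074 of 17622 genes were called in Anti-miR-21 and ACEi against Veh. The falls with Anti-miR-21 were thus called at the same number without these mice, while 2 of the 3 ACEi calls, those of Pdgfd and Pdgfrb, were lost with 3 Veh mice remaining.

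The genes whose level was most like that of each member over the 20 mice, among 12573 protein-coding genes, are given as a description, since all 20 mice share the same 4 groups. For Pdgfrb they were Pcdhb9 (Pearson r = 0.995), Mmp14 (0.994), a matrix metalloproteinase, and Vstm4 (0.993). For Pdgfra they were Arhgap23 (0.973), Armcx2 (0.972) and Ksr1 (0.971). For Pdgfb they were Mvp (0.986), Cspg4 (0.985), which encodes the pericyte proteoglycan NG2, and Nfkb2 (0.985). For Pdgfa they were Chpf (0.982), Tspan17 (0.981) and Cd9 (0.977), and for Pdgfd Ogdhl (0.967), Tmem132a (0.957) and Sorbs2 (0.952). Pdgfc had no match as close, with Man2c1 (0.807), Mroh1 (0.799) and Gprc5c (0.787).

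After the group means were taken out, so that only mouse-to-mouse deviations within groups remained, the closest genes were Vstm4 (0.955), Adam12 (0.952) and Adgra2 (0.945) for Pdgfrb, and Adgrl4 (0.949), Fam49a (0.938) and Tril (0.937) for Pdgfra. Cspg4 stayed among the closest for Pdgfb (0.882), with Lif (0.834) and Phlda1 (0.827). For Pdgfa they were Insyn1 (0.896), Ten1 (0.875) and Wnt4 (0.870), for Pdgfd Lrsam1 (0.904), Adamtsl5 (0.843) and Atp13a2 (0.842), and for Pdgfc Kctd7 (0.815), Mroh1 (0.809) and Ntn4 (0.808). Between members, the deviations of the 2 receptors were the most alike (0.781), followed by Pdgfc with Pdgfd (0.505), and those of Pdgfa and Pdgfc ran opposite (-0.533), all over 20 mice of similar depth.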

How the data were processed

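Libraries of total kidney RNA from 20 mice (5 WT, 6 Veh, 6 Anti-miR-21, 3 ACEi) were sequenced as paired-end reads, and the groups were taken from the labels of each mouse. Using the OmicSoft aligner on GRCm38, the authors made and deposited estimated counts (expected counts) per Ensembl gene without normalization, of which 27.868% of the values above 0 were not whole (tolerance 1e-06). The counts were rounded before testing. The authors also deposited FPKM per gene, for which the methods name an Ensembl gene model while the annotation table names UCSC genes for most entries, and a count of alignments per library, which ran from 70004591 to 73294858. The 3 FPKM columns that match no mouse of these groups were not used.

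Genes passing filterByExpr (minimum count 10, minimum total 15) were fitted on all 20 mice with edgeR 4.0.16 (R 4.3.3, glmQLFTest), with TMM scaling, 1 coefficient per group and Benjamini-Hochberg adjustment over 17622 genes (threshold 0.05). DESeq2 1.42.0 and limma 3.58.1 on log2(FPKM + 1) served as alternatives. Fold changes from limma are on that scale and understate changes of low genes. CPM were TMM-scaled, and log2 CPM used a prior count of 2. Ratios of FPKM were compared with exact permutation tests over all divisions of the mice, and scipy 1.17.1 adjusted their p-values. Motifs and seed matches were searched in RefSeq and GENCODE sequence of GRCm38. Plots were drawn with matplotlib 3.10.9.

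The members, the gene lists and the tests were chosen with earlier results of these data known, and adjusted p-values are over all genes tested. Named genes were the members, the whole activation and binding list, the 3 signalling genes that rose and the 3 that fell most past the threshold in each comparison, and the 3 protein-coding genes most like each member with a mean log2 CPM of at least 1. The values of 1 signalling gene are not reported here, although it is in the counts of that list. The scripts were tested on simulated counts. Alternatives covered the test, scaling, filter, run code, samples entering the fit, adipocyte markers, the FPKM scale and each mouse left out in turn.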

Additional observations from a re-analysis of the deposited data

Results flagged for a closer look

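The ratio of Pdgfb to Pdgfa FPKM in the Anti-miR-21 group stood out for 1 mouse, A10, at 2.27, while the other 5 mice lay close together from 1.35 upwards. The gap to the nearest mouse was 0.798 of the whole range of the 6 mice, above Dixon's critical value for 6 samples. Of 24 groups of values checked in this way, this was the only one to stand out, and chance flags about 1 in 20 groups. Mouse A10 had the highest Pdgfb (113 CPM) and Pdgfd (16.6 CPM) of its group and is its only mouse with run code B. The part of the run code in this value was not tested, since no other Anti-miR-21 mouse shares it.

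Plau, the gene of urokinase, was the single gene of the activation and binding list whose response differed between the treatments, by 0.58 on the log2 scale with Anti-miR-21 above ACEi (edgeR adjusted p = 0.0311, 6 against 3 mice without overlap). Over all genes 0.584% were called between the treatments, and 4.19% were higher in Anti-miR-21 without overlap. For Plau, library totals alone gave 0.52 (edgeR adjusted p = 0.0848). Within run codes A and B the difference was 0.62 and 0.77, with 1 mouse on 1 side in each.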

How the results depend on the processing

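No paired analysis was possible because no replicate name is shared between groups. Besides leaving out single mice there were 16 alternatives, and 3 were chosen after seeing the data: FPKM divided by the TMM factor, the 4 mice rich in adipocyte markers left out, and levels per kilobase of merged exons. With single mice left out, 5 to 6 members stayed called in Veh against WT and 5 in Anti-miR-21 against Veh (4 in Anti-miR-21 and 5 to 6 in ACEi against WT). This covers single mice left out only. Within run code B a lone mouse stands for Anti-miR-21, where the Pdgfb difference from Veh was -0.21 and no test result is given. Of the values given for single genes, 1552 kept direction and call, 116 lost the call, 32 gained it and 33 reversed. The cause of a changed value was not tested unless fewer mice or divisions show it.

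In ACEi against Veh 5 members were called with DESeq2 (beside 7525 of 17622 genes) and with upper-quartile scaling (7380 of 17622). Limma also gave 5, on log2(FPKM + 1) (9642 of 21460 genes), log2(FPKM + 0.1) (9173 of 21460) or FPKM of at least 1 (8241 of 13024). Limma on FPKM divided by the TMM factor gave 2 (7029 of 21460), as did every gene with a count (6443 of 27201). Run code as a term also gave 2 (6577 of 17622), and library totals alone 6 (9296 of 17622). Within run code B 0 were called, beside 1316 of 17903 genes tested. Without the 4 adipocyte-rich mice 1 was called, beside 4614 of 17263 genes, and 1 to 4 when single mice were left out, beside 4978 to 7335 genes. In Anti-miR-21 against Veh 4 were called with limma on FPKM divided by the TMM factor, beside 10359 of 21460 genes. Within run code B, with few mice, 2 members were called in ACEi against WT, beside 4999 of 17903 genes. Between the treatments 1 member was called with DESeq2, beside 440 of 17622 genes, and 1 with at least 10 counts in every mouse, beside 155 of 13897. With single mice left out it was 0 to 1. Of the 35 activation and signalling genes, 2 were called in ACEi against Veh within run code B, beside 1316 of 17903 genes. Without the adipocyte-rich mice 9 of the 35 were called, beside 4614 of 17263 genes, and with single mice left out 12 to 18. Between the treatments 0 of the 35 were called with library totals, beside 73 of 17622 genes, and 0 to 1 with single mice left out.

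The Pdgfc value in Veh against WT became 0.36 with library totals, 0.30 with limma on log2(FPKM + 1), with or without the filter, and 0.35 on log2(FPKM + 0.1). In Anti-miR-21 against Veh it became -0.25, -0.20 and -0.23, and in Anti-miR-21 against WT 0.11, 0.10 and 0.12, in the same order. With library totals Pcsk5 became 0.040 in Veh against WT and -0.0043 in Anti-miR-21 against Veh, and Plau 0.36 and -0.20. Between the treatments, values near 0 changed sign. Furin became 0.061 with run code as a term, 0.15 within run code A, 0.025 with adipocyte markers as a term, and -0.10 to 0.042 with single mice left out. Pcsk5 became 0.17 within run code A, 0.048 with adipocyte markers as a term and -0.11 to 0.030 with single mice left out, and Nrp1 became 0.017 and 0.014 under the first 2 of these settings. Within run code B St14 became 0.026 and Lrp1 0.068. With single mice left out St14 ran from -0.19 to 0.0084 and Pdgfrl from -0.54 to 0.091.

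The log2 ratio of Pdgfb to Pdgfa in Veh against WT was 0.72 from counts and 0.65 to 0.87 with single mice left out, without a call after adjustment. The same ratio was 0.68 within run code B in Anti-miR-21 against Veh (-0.0064 to 0.14 with single mice left out), 0.26 within run code A in ACEi against Veh (0.39 to 0.51) and 0.13 within run code B between the treatments (-0.44 to -0.28). The ratio of Pdgfrb to Pdgfra ran from -0.17 to 0.17 in Veh against WT, 0.27 to 0.42 in Anti-miR-21 against Veh, 0.21 to 0.35 in ACEi against Veh and -0.0076 to 0.14 between the treatments with single mice left out. Depth did not limit the members, whose lowest count came from Pdgfra in WT.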
